A study of Homo sapiens with 24 samples.

Results

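The cancer-testis antigen families are genes of which most lie on the X chromosome and are normally read in testis, and which many tumours read again. They were taken here as the symbols that begin with MAGEA, MAGEB, MAGEC, SPANX, GAGE, PAGE, XAGE, SSX or CTAG followed by a digit or letter, leaving out symbols that end in P or P and digits or that contain -AS. By this rule 81 of the 59385 gene symbols in the count table were members, and the rule left out 22 of the 103 symbols with these beginnings. No expression value entered the rule. The letters also brought in 6 CTAGE genes, which are another gene family, the transcripts MAGEA6-DT and SPANXA2-OT1, and the read-through gene MAGEA10-MAGEA5. In GENCODE 29 annotation 80 members were found, 74 of them on chromosome X.

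RNA was sequenced from 2 widely used human cell lines, A549 and H1299, both grown from non-small cell carcinomas of the lung. Each line stably carried, by lentivirus, FLAG-tagged SIRT6 as the wild-type protein (WT), the acetylation-deficient mutant K3R or the acetylation-mimetic mutant K3Q, or the FLAG-tagged empty vector (Ctr). SIRT6 is an NAD-dependent deacylase of chromatin. The labels name no loss of the cells' own SIRT6 in any group, nor which lysines the mutants change. Each of the 8 groups had 3 libraries, named here by biological replicate and batch: 1-1, 1-2 and 2-2. Libraries 1-1 and 1-2 share a biological replicate, so p-values measure the spread between libraries, part of which may be technical. A549 K3Q libraries 1-2 and 2-2 stood apart by how close they were over all genes (chi-square per degree of freedom 2.49, where each of 23 further within-group pairs had 14.4 to 63.6), and whether they come from 1 culture is not given in the sources used here. If they do, the 3 A549 K3Q libraries rest on 1 biological replicate, and the means, SD and p-values of A549 K3Q below count them as 3 libraries. A library held 16434492 to 19412274 gene counts in A549 and 14943189 to 22856407 gene counts in H1299. Reads of SIRT6 matched the labels, at 1370 to 3254 CPM (counts scaled to 1000000 gene counts per library) in the A549 libraries with a SIRT6 construct against 22.1 to 33.6 CPM in A549 Ctr, and at 2490 to 14550 CPM in the H1299 libraries with a construct against 35.2 to 46.3 CPM in H1299 Ctr. The H1299 K3Q cells held more SIRT6 reads than the H1299 WT cells (13120 ± 2329 against 4056 ± 2448 CPM, SD, n = 3 each), so the form of SIRT6 and its dose cannot be told apart there. In A549 libraries 1-1, 1-2 and 2-2 SIRT6 stood at 1370, 2451 and 2885 CPM in WT and 1389, 2224 and 3254 CPM in K3R. A549 K3Q had 1474, 1635 and 1533 CPM, fewer than WT and K3R in 1-2 and 2-2 but not in 1-1. Form and dose cannot be told apart in batch 2 of A549 either. CDKN2A, which A549 is known to have lost, stood at 0 to 1.30 CPM in A549 and at 105 to 146 CPM in H1299. Of 7 germ cell markers, TNP1, PRM1 and PRM2 had no read in any library, and the summed level of all 7 was 0.361 to 1.70 CPM in A549 and 0.186 to 0.903 CPM in H1299. In bulk RNA, fewer cells that express a gene and less RNA per cell cannot be told apart.

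MAGE proteins bind RING ubiquitin ligases and steer what these ligases mark, SPANX proteins belong to the nuclear envelope of sperm, and GAGE, PAGE and XAGE are related families of small acidic proteins. CTAG1A and CTAG1B code for the antigen NY-ESO, and SSX genes are known as fusion partners in synovial sarcoma. In somatic tissue the promoters of these genes are kept silent by DNA methylation, and agents that remove methylation are known to switch many of them on. Many members arose by recent duplication, so short reads often cannot be given to a single copy. Of the 80 annotated members, 13 had no stretch of 50 bases in their transcripts that was unique to them, and in 37 under 50% of such stretches were unique.

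The start regions of the members that the results turn on are shown first, since methylated CpG in them is the known switch. Each is the 250 bases before the RefSeq start on GRCh38.p14, written 5′ to 3′ on the gene's own strand, with each CpG in capitals. The windows lie at chrX:141002344-141002593 on the plus strand for SPANXB1, chrX:141242518-141242767 on the minus strand for SPANXC, chrX:152769690-152769939 on the minus strand for MAGEA6, chrX:151912224-151912473 on the plus strand for MAGEA4 and chrX:55074780-55075029 on the plus strand for PAGE2B.
SPANXB1: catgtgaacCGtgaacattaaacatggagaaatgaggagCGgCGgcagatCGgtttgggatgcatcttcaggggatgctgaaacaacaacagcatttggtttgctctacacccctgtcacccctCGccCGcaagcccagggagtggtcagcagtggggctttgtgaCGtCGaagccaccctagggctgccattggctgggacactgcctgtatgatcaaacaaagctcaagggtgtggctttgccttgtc
SPANXC: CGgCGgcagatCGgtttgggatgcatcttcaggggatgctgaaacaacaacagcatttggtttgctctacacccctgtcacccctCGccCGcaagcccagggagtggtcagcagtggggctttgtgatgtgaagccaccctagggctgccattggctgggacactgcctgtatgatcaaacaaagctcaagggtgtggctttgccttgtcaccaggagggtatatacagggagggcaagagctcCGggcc
MAGEA6: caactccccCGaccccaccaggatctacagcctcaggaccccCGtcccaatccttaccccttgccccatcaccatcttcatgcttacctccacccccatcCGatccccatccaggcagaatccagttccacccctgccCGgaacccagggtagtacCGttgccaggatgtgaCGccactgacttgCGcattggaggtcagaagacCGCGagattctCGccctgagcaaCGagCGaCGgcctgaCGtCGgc
MAGEA4: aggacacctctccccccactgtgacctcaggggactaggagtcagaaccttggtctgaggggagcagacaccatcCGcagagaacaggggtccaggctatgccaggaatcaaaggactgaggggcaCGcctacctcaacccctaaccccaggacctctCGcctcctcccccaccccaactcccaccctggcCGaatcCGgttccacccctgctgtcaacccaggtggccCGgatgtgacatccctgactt
PAGE2B: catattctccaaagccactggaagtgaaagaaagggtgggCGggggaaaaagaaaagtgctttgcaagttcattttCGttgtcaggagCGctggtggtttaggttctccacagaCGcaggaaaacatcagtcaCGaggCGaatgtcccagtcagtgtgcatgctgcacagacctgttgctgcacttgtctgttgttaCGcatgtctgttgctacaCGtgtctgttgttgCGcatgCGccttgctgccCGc

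These windows held 8 CpG in SPANXB1, 6 in SPANXC, 15 in MAGEA6, 6 in MAGEA4 and 11 in PAGE2B. Over the 69 members with a RefSeq window the median was 8 CpG, and over all 27305 windows it was 11. SPANXB1 and SPANXC shared 209 of 211 aligned bases (99.1%). The window of MAGEA3, at chrX:152698544-152698793 on the plus strand, was the same as that of MAGEA6 in all 250 bases. No methylation was measured here.

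The same families were read very differently in A549 and H1299. The members summed to 29.4 to 47.5 CPM in the 12 A549 libraries (median 40.6) and to 1386 to 1874 CPM in the 12 H1299 libraries (median 1633), and the ranges did not overlap. In A549, 6 members averaged at least 1 CPM and 41 had no read, while in H1299 these numbers were 15 and 37. A total of 26 members had no read in either line, which over 12 libraries allows up to 0.0143 CPM in A549 and 0.0133 CPM in H1299 (3 reads, counting error only), and 14 of those 26 had under 50% unique stretches. Only MAGEA3, MAGEA6, XAGE1A and XAGE1B averaged at least 1 CPM in both lines.

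Most reads of these families came from the MAGEA genes in both lines. MAGEA4, which is known as a target of engineered T cells, had 7 reads in 4 of the 12 A549 libraries, against 629.7 to 962 CPM in the H1299 libraries (median 759). Per kilobase of exon it was the highest member in H1299, at 247 ± 34.3 CPM per kilobase (SD, n = 12). MAGEA3 stood at 2.66 to 4.95 CPM in A549 (median 3.63) and at 178 to 287 CPM in H1299 (median 223). MAGEA6 was the highest member by CPM in A549, at 14.3 to 35.1 CPM (median 22.8), and stood at 168 to 269.9 CPM in H1299 (median 217). None of these genes had overlapping ranges between the lines. MAGEA12 stood at 0.0543 to 1.46 CPM in A549 and 137 to 223 CPM in H1299, and MAGEA1 at 0.109 to 0.849 CPM in A549 and 77.2 to 132 CPM in H1299. MAGEA10 had reads in few A549 libraries, at 0 to 0.0609 CPM, and stood at 43.9 to 73.5 CPM in H1299. MAGEA6-DT, a transcript named after its start beside MAGEA6, had no read in A549 and 2.81 to 7.46 CPM in H1299.

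Of the GAGE, PAGE and CTAG1 genes, GAGE2A, GAGE1, GAGE13, PAGE2B, CTAG1A and CTAG1B averaged at least 1 CPM in H1299 and had at most 1 read in A549. In H1299 7 of the 13 GAGE members had no read, nor had PAGE1 and PAGE3. GAGE2A had 1 read in the A549 libraries together and 36.8 to 54.7 CPM in H1299, GAGE1 had none in A549 and 18.4 to 29.5 CPM in H1299, and GAGE13 had 1 in A549 and 4.35 to 7.63 CPM in H1299. PAGE2B had 1 read in A549 and 1.99 to 7.81 CPM in H1299. CTAG1A and CTAG1B had no read in A549 and stood at 1.15 to 3.35 and 1.58 to 3.81 CPM in H1299. Both XAGE1 copies were read in both lines, XAGE1A at 0.309 to 1.80 CPM in A549 and 1.56 to 5.76 CPM in H1299, and XAGE1B at 0.326 to 2.11 CPM in A549 and 1.43 to 5.24 CPM in H1299, with overlapping ranges.

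SPANX ran the other way. SPANXB1 stood at 0.597 to 16.99 CPM in A549 (median 3.49) and at 0 to 1.05 CPM in H1299 (median 0.134), and SPANXC at 0.103 to 3.51 CPM in A549 with no read in H1299. Per kilobase of exon, the order of SPANXB1 and MAGEA6 in A549 differed by construct. SPANXB1 averaged 21.2 ± 10.3 CPM per kilobase in WT and 22.9 ± 14.1 in K3R, where MAGEA6 had 10.3 ± 1.19 and 10.4 ± 2.48, and the libraries of these 2 genes overlapped. It averaged 4.41 ± 2.21 CPM per kilobase in K3Q and 3.79 ± 2.76 in Ctr, where MAGEA6 had 14.1 ± 1.46 and 14.7 ± 3.66 (SD, n = 3 each), and there every library of MAGEA6 lay above every one of SPANXB1. MAGEB6 was also read in A549, at 0 to 3.29 CPM, against 0 to 0.0541 CPM in H1299. The SSX, CTAGE, MAGEB and MAGEC families each averaged under 1 CPM as a sum in both lines. Their highest members were SSX1, CTAGE4, MAGEB6 in A549 and MAGEB17 in H1299, and MAGEC2. PAGE1 was the highest PAGE gene in A549, with 35 reads in 11 of the 12 libraries, and the 1 CTAG read of A549 was of CTAG2. The 8 SSX members summed to 19 reads in A549 and 8 reads in H1299, all from SSX1, and the 6 CTAGE members to 10 and 40 reads.

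**Figure D1:**
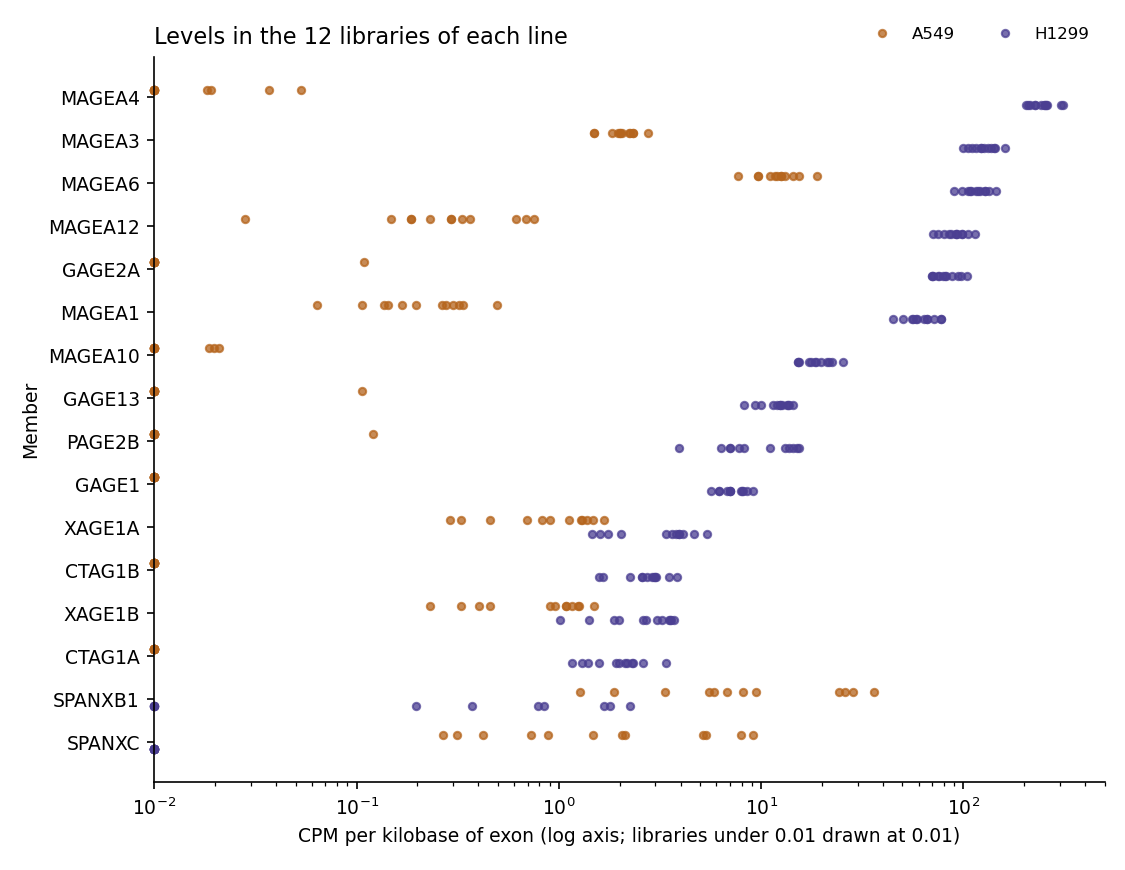
Levels of the 16 annotated members that average at least 1 CPM in either line, as CPM per kilobase of exon on a log axis, with 1 point per library (12 of A549 above 12 of H1299 for each member). Most members stand far to the right in H1299, and SPANXB1 and SPANXC stand to the right in A549.

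The empty-vector groups of the lines were compared directly. Of 18102 genes tested, 11854 differed between A549 Ctr and H1299 Ctr (65.5%, edgeR quasi-likelihood test, Benjamini-Hochberg adjusted p under 0.05). Of the 22 members that passed the filter on low counts, all 22 differed, 4 higher and 18 lower in A549. The members that are low in one line passed the filter through the line where they are high, so their count carries no weight beside the 65.5%. MAGEA6 averaged 27.3 ± 6.82 CPM in A549 Ctr and 197 ± 26.5 CPM in H1299 Ctr (log2 -2.69 ± 0.18 SE, adjusted p = 6.5e-11), and MAGEA3 4.14 ± 0.834 CPM in A549 Ctr and 205 ± 23.3 CPM in H1299 Ctr (log2 -5.46 ± 0.18, adjusted p = 1.52e-15; SD, n = 3 each). MAGEA4 had 3 reads in A549 Ctr against 41327 in H1299 Ctr, a ratio of H1299 over A549 of 12840 (95% counting interval 4395 to 62290). GAGE2A had none in A549 Ctr and 43.0 ± 10.2 CPM in H1299 Ctr, at least 737-fold lower in A549 when 3 reads over the group are taken as the floor. SPANXB1 had 89 reads in A549 Ctr and 2 in H1299 Ctr, a ratio of A549 over H1299 of 47.7 (95% counting interval 12.8 to 400.2; adjusted p = 1.14e-06). Without library 1-1 of A549 Ctr 13 members passed, and without another single library 20 to 23 did. A lost call there need not mean a smaller difference, since several members had no read in A549. Over these omissions the log2 change ran from -11.62 to -11.6 in GAGE1 and from -8.39 to -8.17 in CTAG1B, both without a read in A549. The cause of the lower number was not tested.

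MAGEA3 and MAGEA6 have the same start region and closely alike transcripts, yet were unequal in only one of the lines. In A549 the reads of MAGEA6 were 4.92 to 7.44 times those of MAGEA3 (median 6.36, 4824 and 773 reads in all). In H1299 they were 0.922 to 1.00 times those of MAGEA3 (median 0.956, 49368 and 51498 reads). The ratio lay in separate ranges in the lines, whatever the construct, and no test was made of it. Of the transcript stretches of 50 bases, 43.5% in MAGEA3 and 46.1% in MAGEA6 were unique to the gene. How reads of the remaining stretches were counted is not given in the sources used here, so part of either count may belong to the other gene.

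**Figure D2:**
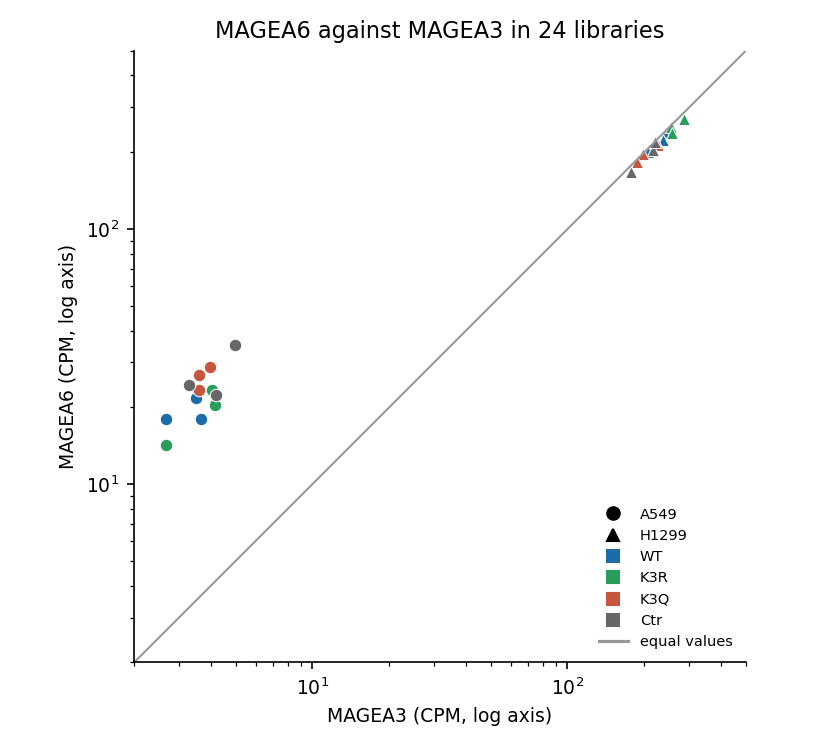
CPM of MAGEA6 (vertical, log axis) against MAGEA3 (horizontal, log axis) in 24 libraries, with circles for A549, triangles for H1299, colours for the construct and a line of equal values. The H1299 libraries lie along the line and the A549 libraries above it, at ratios of 4.92 to 7.44.

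The main question of the design was what WT, K3R and K3Q SIRT6 do to expression. In A549 WT and K3R cells SPANXB1 was about 6 times as high as in Ctr cells, and in K3Q cells it was near Ctr. SPANXB1 stood at 4.40, 12.1 and 13.3 CPM in A549 WT libraries 1-1, 1-2 and 2-2. K3R libraries had 3.81, 11.4 and 16.99 CPM and K3Q libraries 0.876, 2.58 and 2.74 CPM, against 0.597, 1.57 and 3.16 CPM in A549 Ctr. All WT and K3R libraries lay above all Ctr and K3Q libraries, while K3Q and Ctr overlapped. Matched by library number, WT was 7.37, 7.72 and 4.20 times Ctr, K3R was 6.38, 7.27 and 5.37 times Ctr, and K3Q was 1.47 and 1.64 times Ctr in libraries 1-1 and 1-2. Library 2-2 of K3Q (2.74 CPM against 3.16 CPM in Ctr) did not deviate together with the other 2-2 libraries, so its number does not pair it. In each construct library 1-1, the sole one of batch 1, was the lowest. The WT to Ctr ratio within batch 1 was 7.37, and within batch 2 the log2 change was 2.48, with 2 libraries a group and an adjusted p of 0.33.

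Tested over construct and batch, SPANXB1 rose in A549 WT against Ctr (log2 2.58 ± 0.25 SE, adjusted p = 0.00402) and in K3R against Ctr (log2 2.63 ± 0.25, adjusted p = 0.00336, edgeR quasi-likelihood test, n = 3 each). Of 16120 genes tested, 17 passed for WT (0.105%) and 19 for K3R (0.118%), and SPANXB1 was the 1 member among the 9 tested in either. K3Q against Ctr gave a log2 change of 0.33 ± 0.26 (adjusted p = 0.716), where 4 genes passed (0.0248%) and no member did. There 1 member had an unadjusted p under 0.05, beside 1390 of 16120 genes (DESeq2 also called no member). K3Q lay below WT (log2 -2.25 ± 0.24, adjusted p = 0.0248) and below K3R (log2 -2.30 ± 0.24, adjusted p = 0.0204), and in each of these comparisons SPANXB1 was the single gene of 16120 that passed (0.00620%). K3R against WT gave 0.04 ± 0.22 (adjusted p = 1), where no gene passed (0%), 116 genes and no member had an unadjusted p under 0.05, and DESeq2 called none. The 2 rises passed under each omission of a single library and lost the call without the batch term (adjusted p 0.54 and 0.512), in batch 2 alone and with biological replicate 1 summed. The fall in K3Q against WT lost its call under every omission of 1 library and ran from -2.31 to -2.16 over these omissions. Over all alternatives it ran from -2.31 to -2.06, the last being the value of the summed SPANX members. The fall in K3Q against K3R lost its call under each such omission but that of K3R 1-2 (adjusted p 0.0424 to 0.352). Both falls lost it without the batch term (adjusted p = 1 for each), in batch 2 alone (adjusted p = 0.902 and 0.933) and with biological replicate 1 summed (adjusted p = 0.981 and 0.984).

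SPANXC, another copy of the same cluster on chromosome X, was also higher on average in WT and K3R than in K3Q and Ctr, at a lower level. It stood at 0.572, 2.07 and 3.51 CPM in A549 WT, 0.820, 1.99 and 3.10 CPM in K3R, 0.103, 0.281 and 0.343 CPM in K3Q, and 0.163, 0.121 and 0.791 CPM in Ctr. The WT and Ctr ranges overlapped at library 1-1 of WT, and the K3R and Ctr ranges did not overlap. Its log2 changes of 2.46 ± 0.50 for WT against Ctr (adjusted p = 0.107) and 2.48 ± 0.51 for K3R against Ctr (adjusted p = 0.12) did not pass, and did with the library number as a replicate block (adjusted p = 0.0174 and 0.0223, with 0.651% and 0.546% of genes called). K3Q against WT gave -2.94 ± 0.53 (adjusted p = 0.185). SPANXC had 0.0769 to 0.273 times the reads of SPANXB1 in the 12 A549 libraries (238 and 1263 reads in all). Only 15.1% of its transcript stretches were unique, against 78.3% in SPANXB1, so part of either count may belong to another copy.

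Summed over the 11 SPANX members, SPANXA2-OT1 included (95 of 1621 A549 reads), the family averaged 12.6 ± 6.25 CPM in A549 WT, 13.4 ± 7.54 CPM in K3R, 2.81 ± 0.971 CPM in K3Q and 2.63 ± 1.62 CPM in Ctr (SD, n = 3 each). The sum rose in WT (log2 2.31 ± 0.23, adjusted p = 0.00526) and K3R (log2 2.38 ± 0.23, adjusted p = 0.00358) against Ctr and fell in K3Q against WT (log2 -2.06 ± 0.23, adjusted p = 0.0279) and against K3R (log2 -2.13 ± 0.23, adjusted p = 0.0205). SPANXA2-OT1, a transcript at the SPANXA2 locus, did not share this order, at 0.480 ± 0.0881 CPM in WT, 0.531 ± 0.423 CPM in K3R, 0.410 ± 0.271 CPM in K3Q and 0.391 ± 0.189 CPM in Ctr.

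The other 7 members tested in A549 did not pass in any comparison of constructs made after the filter on low counts. MAGEA6 had 18.0, 21.8 and 17.9 CPM in WT and 20.5, 23.3 and 14.3 CPM in K3R, and 23.3, 28.7 and 26.7 CPM in K3Q, against 22.4, 35.1 and 24.5 CPM in Ctr. The log2 changes were -0.47 ± 0.21 in WT (adjusted p = 0.623) and -0.46 ± 0.21 in K3R (adjusted p = 0.737), and the K3Q libraries lay within the range of Ctr. MAGEB6 stood at 1.93, 1.34, 0.229 and 3.29 CPM in library 2-2 of WT, K3R, K3Q and Ctr, and at 0.423 CPM or less in all 1-1 and 1-2 libraries. Tested by edgeR without the filter it passed in K3Q against Ctr (log2 -2.72, adjusted p = 0.000884, 1.82% of genes called). It also passed there in K3Q against WT (log2 -2.21, adjusted p = 0.0417, 0.942% of genes called). K3Q library 2-2 is the one close to K3Q library 1-2, and its part in the MAGEB6 values was not tested. With these 2 K3Q libraries summed, SPANXB1 kept its calls in WT and K3R against Ctr. K3Q against WT and against K3R then no longer passed (adjusted p = 0.323 and 0.282), at log2 changes of -2.24 and -2.28.

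**Figure D3:**
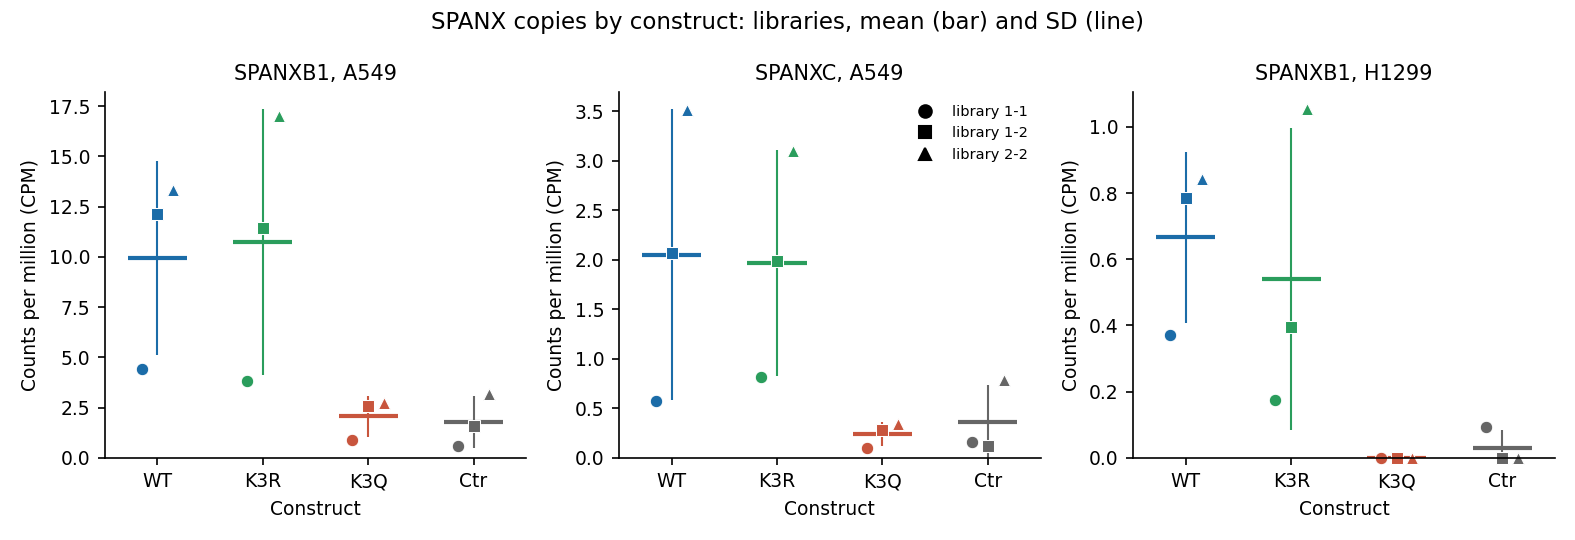
CPM of SPANXB1 and SPANXC in A549 and of SPANXB1 in H1299 by construct, with 1 point per library (shape for the library), a bar for the mean of 3 and a line for the SD. The means of WT and K3R stand above those of K3Q and Ctr in each panel. SPANXC of WT library 1-1 (0.572 CPM) lies below that of Ctr library 2-2 (0.791 CPM), and the H1299 scale ends near 1 CPM.

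In H1299 SPANXB1 was also higher with WT than with Ctr or K3Q, at levels near 1 CPM or below. It stood at 0.370, 0.787 and 0.843 CPM in WT and 0.175, 0.395 and 1.05 CPM in K3R, with no read in the 3 K3Q libraries, against 0.0919, 0 and 0 CPM in Ctr. The absence of reads in K3Q allows up to 0.0546 CPM over the group. Every WT and K3R library lay above every Ctr and K3Q library, and the values rest on 36 reads in WT, 29 in K3R, none in K3Q and 2 in Ctr. The ratio of WT over Ctr was 17.7 (95% counting interval 4.56 to 152) and that of K3R over Ctr 13.5 (95% counting interval 3.41 to 117). WT against Ctr passed (adjusted p = 0.0434) among 659 of 16262 genes (4.05%), and K3R against Ctr did not (adjusted p = 0.0801; 528 genes passed, 3.25%), but did with the replicate block (adjusted p = 0.0387, 8.56% of genes called). K3Q was at least 12.2-fold lower than WT, with 3 reads over the group as the floor (adjusted p = 0.0262; 563 genes passed, 3.46%), and at least 9.91-fold lower than K3R (adjusted p = 0.0824; with the block 0.0265, where 3.23% of genes passed). Leaving out single libraries took the adjusted p of SPANXB1 for WT against Ctr to 0.0303 to 0.174. For K3Q against WT it then lay at 0.0530 to 0.108, so that call was lost under every such omission. Summed over the SPANX members, WT against Ctr did not pass (36 and 5 reads, log2 2.71 ± 0.78, adjusted p = 0.0813, edgeR quasi-likelihood test). The sum did not pass for K3R against Ctr (adjusted p = 0.128) or K3Q against K3R (adjusted p = 0.0666) and passed for K3Q against WT (adjusted p = 0.0222).

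MAGEC2, whose protein is known to pair with TRIM28, was also highest in H1299 WT and K3R, at levels that did not pass the filter on low counts. It stood at 0.0926, 0.337 and 1.57 CPM in WT and 0.350, 0.0494 and 1.18 CPM in K3R, with no read in K3Q, against 0.0460, 0 and 0 CPM in Ctr, from 34, 28, 0 and 1 reads in WT, K3R, K3Q and Ctr. Tested without the filter it passed in WT and K3R against Ctr (adjusted p = 0.00147 and 0.00221, with 3.66% and 3.59% of genes called) and in K3Q against WT and K3R (adjusted p = 0.000168 and 0.000443, with 3.54% and 1.83%). The MAGEC sum, of which MAGEC2 held 71.6% of reads, did not pass with the filter, at adjusted p = 0.0735 and 0.122 in the first pair of comparisons and 0.0602 and 0.18 in the second pair. MAGEC2 was chosen for mention after its values were seen.

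PAGE2B rose in H1299 with WT and K3R and stayed near Ctr with K3Q. It stood at 6.67, 5.62 and 7.65 CPM in WT and 6.96, 7.81 and 7.31 CPM in K3R, and at 3.95, 3.21 and 3.57 CPM in K3Q, against 4.18, 1.99 and 3.57 CPM in Ctr. All WT and K3R libraries lay above all K3Q and Ctr libraries. The log2 change was 1.05 ± 0.23 for WT against Ctr (adjusted p = 0.0255) and 1.24 ± 0.23 for K3R against Ctr (adjusted p = 0.0132). K3Q against Ctr gave 0.24 ± 0.24 (adjusted p = 0.774). K3Q lay below WT by -0.81 ± 0.23 (adjusted p = 0.0747) and below K3R by -1.003 ± 0.23 (adjusted p = 0.0787), which passed with the replicate block (adjusted p = 0.0234, 11.97% of genes called, and 0.0167). Of its transcript stretches 47.7% were unique, and the PAGE sum, of which PAGE2B held 99.4% of reads, gave the same calls (log2 1.05, adjusted p = 0.0269 and log2 1.23, adjusted p = 0.0145). Leaving out library 1-1, 2-2 of WT or 1-2, 2-2 of Ctr ended the call for WT (adjusted p up to 0.104), and leaving out library 1-1 of K3R ended that for K3R (adjusted p = 0.0503).

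Among the MAGEA genes of H1299, MAGEA12 and MAGEA3 rose with K3R. MAGEA12 stood at 223, 192 and 206 CPM in K3R, 192, 180.5 and 178 CPM in WT, 179.6, 164 and 146 CPM in K3Q, and 156, 169.5 and 137 CPM in Ctr. The K3R libraries lay above all Ctr libraries (log2 0.48 ± 0.11, adjusted p = 0.0317). MAGEA3 stood at 287, 255 and 257 CPM in K3R, 246, 238 and 208 CPM in WT, 226, 198 and 188 CPM in K3Q, and 217, 219.5 and 178 CPM in Ctr, again with K3R above Ctr (log2 0.43 ± 0.11, adjusted p = 0.0425). MAGEA6 gave 0.41 ± 0.11 (adjusted p = 0.0698) and MAGEA1 0.46 ± 0.15 (adjusted p = 0.114) for K3R against Ctr, and both passed with the block (adjusted p = 0.00426 and 0.00232). The calls of MAGEA12 and MAGEA3 lay close to the threshold. With single libraries left out their log2 changes ran from 0.40 to 0.59 and from 0.35 to 0.54, while calls were lost. MAGEA12 lost its call without K3R 1-1 or 2-2 or Ctr 1-1 or 2-2 (adjusted p up to 0.155), and MAGEA3 without any library of either group other than Ctr 1-2 (adjusted p up to 0.177). Neither passed without the batch term (adjusted p = 0.0672 and 0.105), in batch 2 alone, with biological replicate 1 summed or in one fit of all 24 libraries (adjusted p = 0.19 and 0.0864). The sum of the 15 MAGEA members, of which MAGEA4 held 48.95% of reads, did not pass for K3R against Ctr (log2 0.22 ± 0.12, adjusted p = 0.352, edgeR quasi-likelihood test). It gave 0.22 ± 0.12 for K3Q against Ctr as well (adjusted p = 0.562). For WT against Ctr MAGEA12, MAGEA3, MAGEA6 and MAGEA1 gave log2 changes of 0.18 to 0.26, and with the block MAGEA1 passed (adjusted p = 0.0411, 9.75% of genes called).

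MAGEA4, the most abundant member in H1299, did not follow that order. It stood at 748, 697 and 629.7 CPM in WT and 796, 769.8 and 646 CPM in K3R, at 962, 937 and 698 CPM in K3Q, and at 792, 784 and 661 CPM in Ctr. The 1-1 and 1-2 libraries of K3Q lay above those of all other groups. K3Q against WT gave a log2 change of 0.41 ± 0.13 (adjusted p = 0.11), which passed with the block (log2 0.40, adjusted p = 0.00514). With the block MAGEA6-DT and CTAG1A also differed between K3Q and WT, at -0.68 (adjusted p = 0.0356) and 0.84 (adjusted p = 0.0492), and MAGEA3 and MAGEA6 between K3Q and K3R, at -0.35 (adjusted p = 0.0251) and -0.31 (adjusted p = 0.0429).

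**Figure D4:**
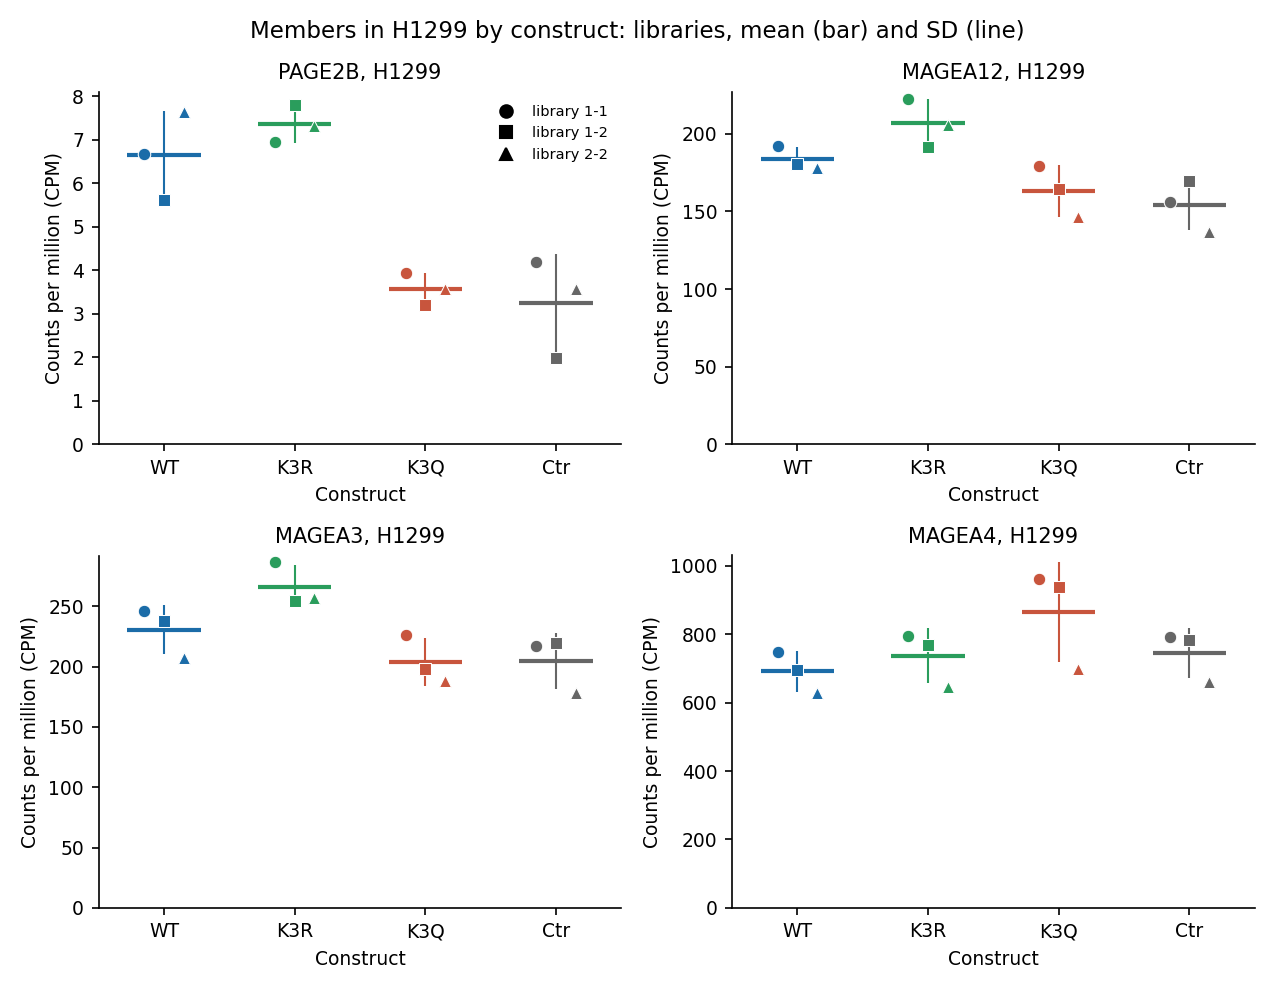
CPM of PAGE2B, MAGEA12, MAGEA3 and MAGEA4 in H1299 by construct, with 1 point per library (shape for the library), a bar for the mean of 3 and a line for the SD. PAGE2B separates WT and K3R from K3Q and Ctr, MAGEA12 and MAGEA3 are highest with K3R, and MAGEA4 is highest in K3Q libraries 1-1 and 1-2.

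In H1299 19 of the 81 members passed the filter on low counts. Against Ctr, 13 of these 19 had a positive log2 change in WT (median 0.18), 17 in K3R (median 0.41) and 14 in K3Q (median 0.18). Over all genes 48.2%, 47.8% and 48.8% did, with medians of -0.01, -0.01 and -0.01. Some of the 19 are close copies that may share reads, such as MAGEA3 with MAGEA6 and XAGE1A with XAGE1B, so they are not 19 independent members. Calls were made for 2 of the 19 members in WT, where 4.05% of all genes passed, for 3 in K3R, where 3.25% did, and for none in K3Q, where 10 genes passed (0.0615%). For K3Q 1 member had an unadjusted p under 0.05, beside 1580 of 16262 genes, and DESeq2 called no member. K3R against WT gave no call of any gene (0%), 1 member at an unadjusted p under 0.05 (beside 486 of 16262 genes) and no member by DESeq2. K3Q against K3R gave no member among 73 genes that passed (0.449%), and PAGE2B by DESeq2 (2.07% of genes called). There 6 members had an unadjusted p under 0.05, beside 1938 of 16262 genes. In A549 the medians over the 9 members tested were 0.17 for WT, -0.10 for K3R and -0.07 for K3Q against Ctr. The comparisons share the Ctr libraries.

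Whether the constructs moved the members differently in the lines was tested as an interaction, the change in A549 minus that in H1299. Of 18102 genes, 133 passed for WT (0.735%), 86 for K3R (0.475%) and 3 for K3Q (0.0166%), and no member did. At an unadjusted p under 0.05 stood 3, 2 and 0 of 22 members, beside 1688, 1479 and 1135 of all genes. DESeq2 called 0, 1 and 0 members, beside 1.71%, 1.29% and 0.271% of genes. SPANXB1 gave an interaction of -1.30 ± 0.87 for WT (adjusted p = 0.721), -0.90 ± 0.84 for K3R (adjusted p = 0.902) and 2.91 ± 1.69 for K3Q (adjusted p = 0.848), wide errors that come with the few reads in H1299. MAGEA6 gave -0.65 ± 0.24 for WT (adjusted p = 0.332) and -0.88 ± 0.24 for K3R (adjusted p = 0.142). It passed with the replicate block, at -0.64 (adjusted p = 0.0266, 2.40% of genes called) and -0.89 (adjusted p = 0.00336, 1.66%), beside log2 changes against Ctr of -0.47 and -0.46 in A549 and 0.18 and 0.41 in H1299. That block also holds A549 K3Q library 2-2, which its number does not pair with the others.

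Several members moved with the library number across all constructs. Library 1-2 differs from 1-1 in batch alone by its label, and these comparisons were chosen after the data were seen. In A549, 3777 of 16120 genes differed (23.4%), and 5 of 9 members were higher in library 1-2. XAGE1B stood at 1.77, 1.53, 1.35 and 2.11 CPM in the 1-2 libraries of WT, K3R, K3Q and Ctr, against 0.572, 0.645, 0.464 and 0.326 CPM in the 1-1 libraries (log2 1.78 ± 0.30, adjusted p = 0.00155). SPANXB1 was higher by 1.54 ± 0.18 (adjusted p = 0.000207), XAGE1A by 1.55, SPANXC by 1.37 and MAGEA6 by 0.40. In H1299, 1427 of 16262 genes differed (8.78%), with 4 of 19 members, XAGE1A (1.25) and XAGE1B (0.96) higher and GAGE2A (-0.34) and MAGEA10 (-0.32) lower. The XAGE1 copies were thus higher in library 1-2 of all 4 constructs in both lines.

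Between the biological replicates within batch 2, library 2-2 differed from 1-2 at 2303 genes in A549 (14.3%) and 2644 in H1299 (16.3%). In A549 MAGEB6 was higher (log2 2.88 ± 0.50, adjusted p = 0.0295) and MAGEA6 lower (-0.45). In H1299 MAGEA4 (-0.31), MAGEA6 (-0.23) and MAGEA1 (-0.38) were lower. In A549 no gene at all passed when the libraries of WT, K3R or Ctr were left out, and when those of K3Q were left out 6053 of 15855 genes did (38.2%), 4 of the 8 members tested among them.

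**Figure D5:**
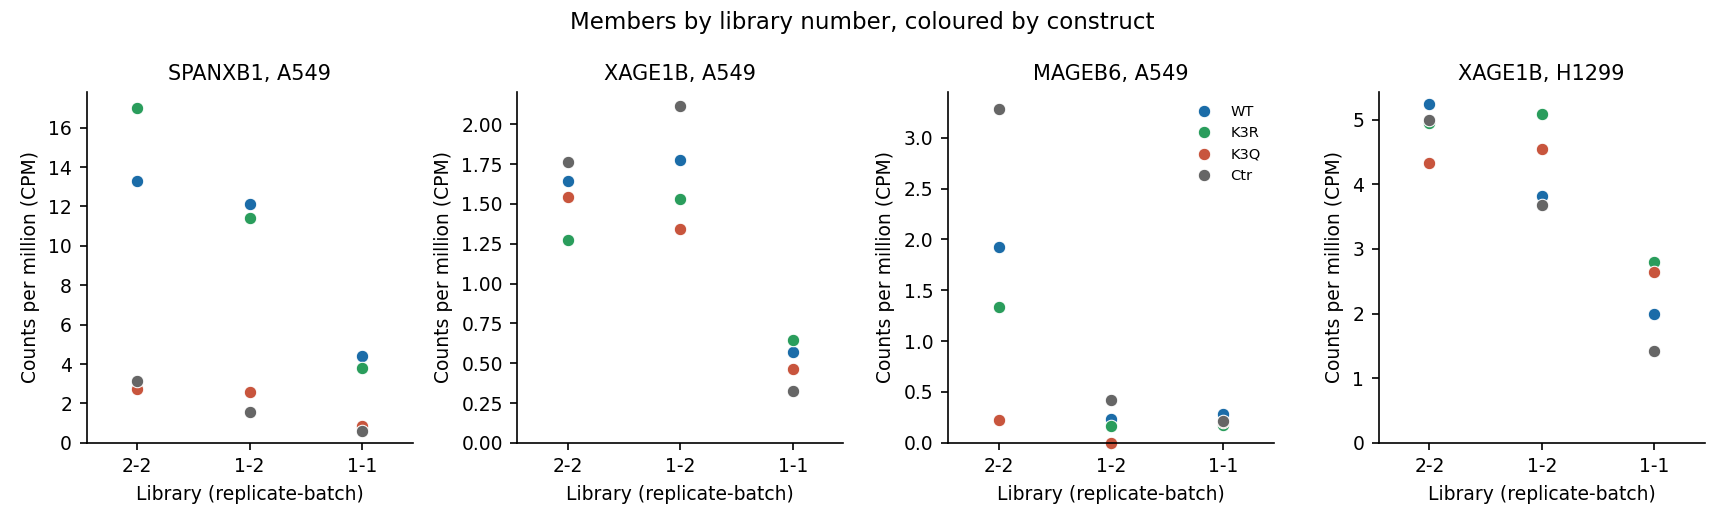
CPM of SPANXB1, XAGE1B and MAGEB6 in A549 and of XAGE1B in H1299 by library (biological replicate and batch), with 1 point per construct. SPANXB1 and XAGE1B are lowest in library 1-1 of every construct, and MAGEB6 is high in library 2-2 of WT, K3R and Ctr and low in that of K3Q.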

How the data were processed

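The authors deposited raw counts of reads for 59385 gene symbols in 24 libraries, 3 for each of 8 groups. Per the labels' protocols, RNAiso Plus was used for the RNA and a SMARTer mRNA kit for the libraries. FastQC, cutadapt, STAR, featureCounts and GRCh38 are named in the submitters' processing notes. Not given in the sources used here: versions, the strand setting and the treatment of reads that fit several copies.

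The 12 libraries of a line were fitted together, apart from the other line, with construct and batch as terms, in edgeR 4.0.16 (R 4.3.3), with the filterByExpr filter, TMM scaling, the quasi-likelihood test and Benjamini-Hochberg adjustment over all genes tested, at a threshold of 0.05. The contrast of the lines and the interactions used all 24 libraries with batch within line. Standard errors are the log2 change over the square root of F. CPM is a count over the library's total gene count. Means ± SD are over 3 libraries unless n says otherwise. Lengths come from GENCODE 29 and start regions from RefSeq on GRCh38.p14, matched by symbol (69 of 81 members). Family sums replaced the members' rows in a second fit. Intervals and floors of 3 reads cover counting error only. The procedure was tested on simulated data for WT against Ctr. Of 100 genes changed 1.5-fold, 11% were recovered in A549 and 21% in H1299. Of 100 genes changed 3-fold, 76% and 83% were, with 5 and 8 false calls. A member that did not pass may therefore still differ by 1.5-fold, and some genes that differ by 3-fold are missed as well.

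The numbers 1-1, 1-2 and 2-2 pair libraries of different constructs, as the labels give them the same biological replicate and batch. Deviations from the group means correlated at 0.134 to 0.549 in H1299 and at 0.278 to 0.749 in A549, save for A549 K3Q library 2-2 at 0.0569 to 0.119. That library is not paired by its number. The replicate block, the library number as a term in place of batch, is therefore given beside results of H1299 and of A549 WT, K3R and Ctr where it changes a call.

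The alternatives were DESeq2 1.42.0, RLE scaling, no filter on low counts, no batch term, the block, batch 2 alone, biological replicate 1 summed, A549 K3Q libraries 1-2 and 2-2 summed, all 24 libraries in one fit, counts summed by family, and leaving out each library. The members and gene lists were chosen with earlier results of these data known. Named genes are SPANXB1, members that passed, members of at least 1 CPM on average in either line, the highest member of each family, and genes of other lists that passed.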

Additional observations from a re-analysis of the deposited data

How the results depend on the processing

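The direction of SPANXB1 was the same under all alternatives for WT and K3R against Ctr and for K3Q against WT and K3R in both lines. Its log2 change ran from 2.31 to 2.95 and from 2.38 to 2.99 in A549 WT and K3R against Ctr, where the low ends are those of the SPANX sum. With single libraries left out SPANXB1 itself ran from 2.35 to 2.95 and from 2.39 to 2.99. Where it had no call, it changed sign without 1 library: in A549 K3R against WT (without WT 1-2 or K3R 2-2; -0.161 to 0.164 over single libraries), in H1299 K3R against WT (without K3R 1-1; -1.046 to 0.0115), in H1299 K3Q against Ctr (without Ctr 1-1; -3.37 to 0.415) and in the K3Q interaction (without H1299 Ctr 1-1; -0.0666 to 3.56). The number of members called was as follows. Without the batch term 0 were called in each of the 4 A549 comparisons with 1 call, and 1 each in H1299 WT and K3R against Ctr (2 and 3 before; 2.52% and 2.03% of all genes called). In batch 2 alone, and with biological replicate 1 summed, 0 were called in each within-line comparison. Few libraries were left in both, and both drop the batch term. Where more members were called, more of all genes were too, and that share follows each count. With the replicate block 2 were called in the A549 comparisons with 1 call (0.651% of genes in WT and 0.546% in K3R against Ctr, 0.124% and 0.0434% in K3Q against WT and K3R), 6 in H1299 K3R against Ctr (8.56%), 5 in K3Q against WT (11.97%), 4 in K3Q against K3R (3.23%), and 2 and 1 in the interactions of WT and K3R (2.40% and 1.66%). In A549 K3Q the block has no pairing for library 2-2. Without the low-count filter 2 were called in A549 WT and K3R against Ctr (0.840% and 0.894%), 1 in K3Q against Ctr (1.82%), and 3 and 2 in K3Q against WT and K3R (0.942% and 0.647%). In H1299 7 were called in K3R against Ctr (3.59%), 4 and 3 in K3Q against WT and K3R (3.54% and 1.83%), and 1 each in the WT and K3R interactions (1.27% and 1.09%). DESeq2 called 2 in those 4 A549 comparisons (1.10%, 1.00%, 0.341% and 0.124%), 5, 2 and 1 in the same 3 H1299 comparisons (5.66%, 6.92% and 2.07%) and 1 in the K3R interaction (1.29%). Summing the A549 K3Q pair left 0 in K3Q against WT and K3R, and one fit of all 24 libraries called 1 in H1299 K3Q against K3R (0.884%). Leaving out single libraries gave 0 to 0 in A549 K3Q against WT, 0 to 1 in K3Q against K3R, 0 to 2 in H1299 WT against Ctr, 0 to 4 in K3R against Ctr, 0 to 2 in K3Q against WT and 13 to 23 between the lines. For library 1-2 against 1-1, leaving out a construct's libraries gave 3 (WT; 12.5% of genes) and 2 (K3R; 8.31%) in A549, and 2 (WT; 5.23%), 1 (K3R; 1.43%) and 2 (Ctr; 3.66%) in H1299. For 2-2 against 1-2 it gave 0 (WT, K3R, Ctr; no gene at all passed) and 4 (K3Q; 38.2%) in A549, and 0 (K3R; 3.43%) in H1299. Apart from what their construction shows, the cause of these changes was not tested. RLE scaling moved none of these counts over 1.5 times. Depth limits SPANXB1 in H1299, with 36, 29, 0 and 2 reads in WT, K3R, K3Q and Ctr.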

Other observations

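Genes around the families were read from lists that are also given without a set test. Of 61 other germline and cancer-testis genes, 60 were in the table, with 7 tested in A549 and 16 in H1299. In H1299 CSAG1, a cancer-testis gene of the X chromosome, rose in K3R, at 83.7, 67.4 and 95.3 CPM, against 65.6, 52.0 and 54.3 CPM in Ctr (log2 0.58 ± 0.12, adjusted p = 0.0234, edgeR quasi-likelihood test, higher in all 3 library numbers, 3.25% of all genes called). It was the 1 gene of that list to pass in the comparisons of constructs. In H1299 up to 6 of 16 had an unadjusted p under 0.05 (WT against Ctr, beside 2849 of 16262 genes). DESeq2 called up to 4 of them (K3R against Ctr, beside 5.66% of genes). In A549 none of 7 passed, with at most 1 at an unadjusted p under 0.05 (WT against Ctr, beside 1279 of 16120 genes) and none by DESeq2.

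Of 12 measured MAGE genes that are read in many somatic tissues, NDN, an imprinted gene of neurons, rose in H1299 WT, at 2.59, 2.08 and 2.11 CPM, against 1.43, 0.242 and 0.417 CPM in Ctr (log2 1.75 ± 0.45, adjusted p = 0.0476, 4.05% of all genes called). It fell in K3Q against WT (log2 -1.82 ± 0.46, adjusted p = 0.0486, 3.46% of all genes called), with K3Q at 0.650, 0.803 and 0.379 CPM. Of 27 genes that act on DNA methylation or on silencing of germline genes, EHMT2, a histone H3 lysine methyltransferase, rose in H1299 K3Q against WT, where 3.46% of all genes passed. It stood at 99.2 ± 9.36 CPM in K3Q and 78.9 ± 5.89 CPM in WT (SD, n = 3 each, log2 0.41 ± 0.09, adjusted p = 0.0339). Of 7 partners and substrates of MAGE proteins, the ubiquitin ligase gene TRIM27 rose in the same comparison, at 205 ± 11.1 CPM in K3Q and 167 ± 13.4 CPM in WT (log2 0.38 ± 0.09, adjusted p = 0.0357). No gene of these 3 lists passed in A549, with at most 1 of a list at an unadjusted p under 0.05 and none by DESeq2. In the comparisons that held such a gene, 1041 to 1390 of 16120 genes had an unadjusted p under 0.05. DNMT1 and the other 25 silencing genes tested in H1299 did not pass in any comparison of constructs. Up to 5 of 27 had an unadjusted p under 0.05 (K3R against Ctr, beside 2867 of 16262 genes). DESeq2 called up to 2 (WT and K3R against Ctr, beside 6.50% and 5.66% of genes).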
